A study of Caenorhabditis elegans with 6 samples.

Results

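The genes described here encode small secreted peptides of the *cnc*, *fip*, *fipr* and *nlp* families, some of which *C. elegans* is known to make in its epidermis against fungi. They were taken by gene symbol: every *cnc*, *fip* and *fipr* gene, and the neuropeptide-like genes *nlp-24* to *nlp-34*. On the array 110 of 43603 probes and 53 of 24733 gene names belonged to them, namely 11 *cnc*, 31 *fip* or *fipr* and 11 *nlp* genes. Worms of the wild-type strain Bristol N2 were fed UV-irradiated OP50 bacteria and, from the L4 stage (the last larval stage), received either pRJ-Fr.5, a fraction of protease-treated royal jelly, or nothing (control) for 24 h. The dose is 25 mg/ml in the sample labels and 25 µg/ml in the study's methods, and 0 in the controls. RNA came from whole hermaphrodites, pooled from many worms for each sample, and 3 samples of each group were hybridized to 1 array each with a single dye. The labels do not say that these were separate cultures, so p-values measure only the spread between these samples.

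The epidermis of *C. elegans* lies under the cuticle and meets wounds and fungi such as *Drechmeria coniospora* first. It answers by transcribing antimicrobial peptide genes, many of which lie side by side. The *nlp-29* group is known to be switched on by a p38 MAP kinase cascade ending in PMK-1 and the STAT-like factor STA-2, and also by high osmolarity. The caenacin (*cnc*) genes, *cnc-2* above all, are known to respond through the TGF-β ligand DBL-1, while *fip* stands for fungus-induced protein and *fipr* for genes related to them.

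Values are given as log2 of the spot signal relative to the 75th percentile of the array, so that 0 is the signal of that percentile. A gene's value is the mean over its probes that were well above background on all 6 arrays, which held for 88 of the 110 probes and 42 of the 53 genes. A level of one gene cannot be set against that of another, because probes differ in brightness. Fold changes compare pRJ-Fr.5 with control, and a gene was called when limma's p-value, adjusted by Benjamini-Hochberg over 16049 genes, was under 0.05. The arrays were of unequal quality: 27932 probes were well above background on control replicate 3 and 32824 to 34553 on the other arrays. Control replicates 1 and 2 and pRJ-Fr.5 replicates 1 and 2 shared slide 1, and the replicates numbered 3 shared slide 2.

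Of the 42 genes measured, 16 were called, 2 higher and 14 lower with pRJ-Fr.5. That was 38.1% of the members, 4.76% higher and 33.3% lower, where 29.8% of all genes were called, 10.7% higher and 19.1% lower. *nlp-28* and *fip-3* were higher, by 0.81 and 0.86 on the log2 scale. Lower were *nlp-30*, 4 other *nlp* genes, 8 *fip* or *fipr* genes and *cnc-8*, and their decreases ran from 1.20-fold to 1.77-fold. Of the *cnc* genes 0 were higher and 1 lower out of 8, of the *fip* and *fipr* genes 1 higher and 8 lower out of 24, and of the *nlp* genes 1 higher and 5 lower out of 10. In the *cnc* family 1 gene, *cnc-7*, was higher at an unadjusted p under 0.05. The median log2 fold change was 0.31 for *cnc*, -0.13 for *fip* and *fipr*, -0.18 for *nlp* and -0.05 for all 42, beside 0.03 for all genes tested, and with the normexp background correction the median of the 42 was 0.01. The *cnc* median was 0.60 without control replicate 1, 0.15 without control replicate 3 and 0.096 with no filter on dim probes. Shifting each array to its median gave 5 higher and 5 lower members, where 11.5% of all genes were called higher and 16.1% lower, and normexp gave 5 and 12, where 10.5% and 17.2% were. The largest values, 1.31 for *cnc-6* and 1.30 for *fipr-24*, were not called.

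**Figure D1:**
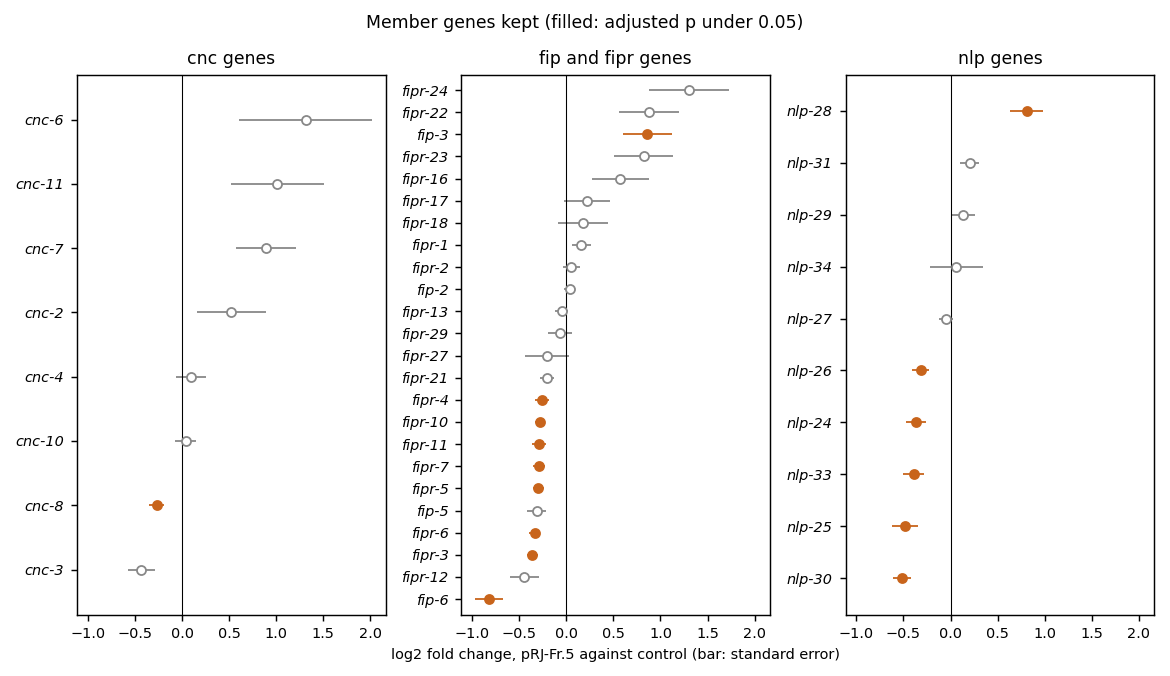
Log2 fold change (pRJ-Fr.5 against control, 3 arrays each) of the 42 measured genes in 3 panels by family, with the standard error as a bar and filled points for an adjusted p under 0.05. Most called genes sit between -0.26 and -0.51 with short bars, while the largest values, such as 1.31 for *cnc-6*, carry long bars and open points.

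In 19 of the 42 genes the values of the groups did not overlap, 17 lower and 2 higher, against 49.8% of all genes (24.6% higher and 25.2% lower). A negative fold change was found in 22 of the 42 and in 45.6% of all genes. All 16 called genes had groups that did not overlap. Their sign was therefore bound to be the same on slide 1 and on slide 2, which is no separate check. With the slide as a block 12 members were called (28.6%, against 27.9% of all genes). There *cnc-3* gained a call, and *cnc-8*, *fip-3*, *fipr-4*, *nlp-24* and *nlp-26* lost theirs, with adjusted p of 0.0518 to 0.0648. At an unadjusted p under 0.05, 24 members passed (57.1%, against 43.9% of all genes). With a change of at least 1.8-fold required as well, only *fip-3* was left (2.38%, against 2.53% of all genes). That count was 0 with quantile normalization, the series table, the methods' t-test or the slide as a block. It was also 0 with the replicate number as a block, no filter on dim probes, or without pRJ-Fr.5 replicate 2 or 3. In these settings 1.60% to 2.50% of all genes passed. The count was 5 after the shift to the median (11.9%, against 2.57% of all genes) and 7 without control replicate 1 (16.7%, against 2.31%). It was 2 without control replicate 2 or 3 or with the probe of highest signal (4.55% to 4.76%, against 2.01% to 2.64%). Without pRJ-Fr.5 replicate 1 it was 3 (7.14%, against 4.93%). Probe by probe, 28 of 88 probes were called, 11 higher and 17 lower, against 25.0% of all probes (8.78% higher and 16.2% lower), and the 11 higher probes were all of *nlp-28*. No 3 arrays against 3 can give an exact permutation p below 0.1, so the calls rest on tests that model the spread. The methods' t-test, which shares no spread across genes, called 7 of the 16 after adjustment. The other calls needed the spread that limma shares across genes.

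The *nlp* genes from *nlp-27* to *nlp-31* and *nlp-34* form a run of 6 neighbours on chromosome V in the RefSeq annotation, in the order *nlp-34*, *nlp-31*, *nlp-30*, *nlp-29*, *nlp-28*, *nlp-27*. These neighbours, which encode short glycine-rich peptides, did not move together: 1 was higher, 1 was lower and 4 were not called. *nlp-28* read 1.91, 1.78 and 1.33 on control replicates 1, 2 and 3 and 2.24, 2.57 and 2.64 on pRJ-Fr.5 replicates 1, 2 and 3. Every pRJ-Fr.5 array was above every control array, and the gene rose by 0.81 ± 0.17 (SE, n = 3 arrays a group), which is 1.75-fold (limma, adjusted p = 0.0153). *nlp-30* went the other way. It read 0.16, -0.18 and -0.03 in the controls and -0.47, -0.50 and -0.61 with pRJ-Fr.5. Its groups did not overlap either, and it fell by 0.51 ± 0.10 or 1.43-fold (adjusted p = 0.00939), with a like decrease on slide 1 (-0.48) and on slide 2 (-0.59). Taken within each array, the difference between *nlp-28* and *nlp-30* grew by 1.32 on the log2 scale, or by 1.18 without 1 low probe of *nlp-28*. This pair was picked after the values were seen. Because the groups of both genes lay apart in opposite directions, those of their difference could not overlap, and a test of it would add nothing.

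**Figure D2:**
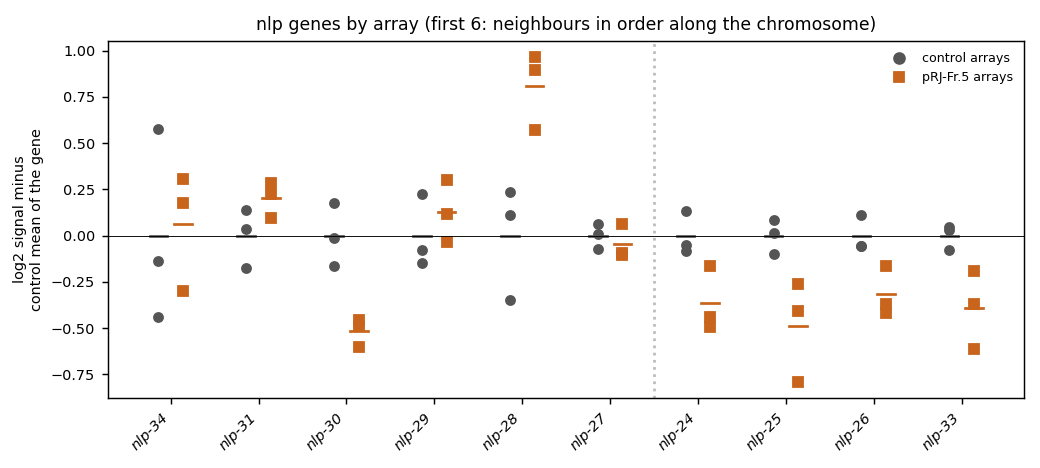
Log2 signal of each array minus the control mean of the gene for the 10 measured *nlp* genes, with control arrays as circles, pRJ-Fr.5 arrays as squares and group means as bars. Left of the dotted line are the 6 neighbours, where *nlp-28* is higher by 0.81 and *nlp-30* lower by 0.51 while the points of the other 4 overlap. To the right, all points of *nlp-24*, *nlp-25*, *nlp-26* and *nlp-33* with pRJ-Fr.5 lie below those of the controls.

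The 4 other neighbours had overlapping groups. *nlp-29*, whose promoter is the usual reporter of infection and wounding in the epidermis, read 0.45, 0.07 and 0.14 in the controls and 0.19, 0.52 and 0.34 with pRJ-Fr.5. The 2 groups covered nearly the same range, and the fold change was 0.13 ± 0.13 (adjusted p = 0.458). *nlp-31*, which encodes a peptide with antimicrobial activity in vitro, read -0.53, -0.84 and -0.63 against -0.57, -0.44 and -0.38, a difference of 0.20 ± 0.10 (adjusted p = 0.16). *nlp-27*, the *nlp* gene with the highest signal, lay between 3.49 and 3.66 on all 6 arrays. Its controls read 3.52, 3.61 and 3.66 and its pRJ-Fr.5 arrays 3.66, 3.49 and 3.50, and the difference was -0.05 ± 0.07 (adjusted p = 0.652). For *nlp-34* the controls spread from -1.76 to -0.75 and enclosed all pRJ-Fr.5 arrays (-1.62 to -1.01). Its fold change of 0.06 ± 0.28 (adjusted p = 0.88) had no stable sign, being -0.16, -0.01 and -0.06 without control replicate 2, control replicate 3 or pRJ-Fr.5 replicate 3.

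*nlp-28* was measured by 12 probes, and all 12 were higher with pRJ-Fr.5, by 0.49 to 2.37, with 11 of them called. The probe at 2.37 was the exception. On control replicate 3 it read -3.08, against 2.20 and 2.09 on the other control arrays and 2.54, 2.81 and 2.97 on the pRJ-Fr.5 arrays, although the scanner software had set no outlier flag on that spot. Without this probe *nlp-28* read 1.88, 1.75 and 1.73 in the controls and 2.21, 2.55 and 2.61 with pRJ-Fr.5. The groups stayed apart and the increase was then 0.67, or 1.59-fold (exact permutation test, two-sided, p = 0.1). With the median over the probes in place of the mean it was 0.70 (adjusted p = 0.00603), both settings being added after the data were seen. Leaving out pRJ-Fr.5 replicate 2 took the call away, with an increase of 0.77 and an adjusted p of 0.0583, and leaving out any other array kept the call. The probe with the highest signal alone gave 0.49 (adjusted p = 0.0221), and the call was also lost with the methods' t-test (adjusted p = 0.0718) and with no filter on dim probes (0.066).

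**Figure D3:**
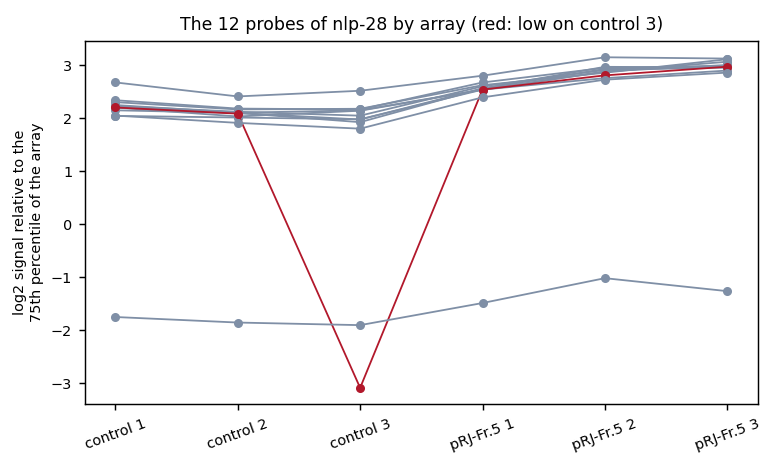
Log2 signal relative to the 75th percentile of the array for the 12 probes of *nlp-28*, 1 line each, over the 3 control and the 3 pRJ-Fr.5 arrays. The lines rise together from control to pRJ-Fr.5, except for the red one, which drops to -3.08 on control replicate 3 alone.

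Outside that run, all 4 measured *nlp* genes were lower. *nlp-24* read 3.29, 3.32 and 3.50 in the controls and 3.21, 2.93 and 2.88 with pRJ-Fr.5. Its pRJ-Fr.5 arrays were all below the controls, by 0.36 ± 0.11 on average (adjusted p = 0.0451), and all 6 probes of the gene went down, by 0.32 to 0.40. *nlp-25* read 0.03, 0.10 and -0.09 against -0.25, -0.40 and -0.78. Here the decrease was 0.49 ± 0.14, or 1.40-fold (adjusted p = 0.0402), with replicate 3 the lowest of the pRJ-Fr.5 arrays. *nlp-26* read 1.96, 1.96 and 2.13 in the controls and 1.85, 1.60 and 1.64 with pRJ-Fr.5, and it fell by 0.32 ± 0.09 (adjusted p = 0.0409). *nlp-33* read 2.76, 2.65 and 2.78 against 2.54, 2.36 and 2.12, and it fell by 0.39 ± 0.11 (adjusted p = 0.04). In both genes the groups did not overlap and pRJ-Fr.5 replicate 1 was the closest to the controls. These 4 calls were close to the threshold: each was lost when control replicate 1, 2 or 3 or pRJ-Fr.5 replicate 2 was left out, and those of *nlp-24*, *nlp-26* and *nlp-33* also without pRJ-Fr.5 replicate 3. The adjusted p then lay between 0.0591 and 0.144, and the decreases between 0.26 and 0.54 when a call was lost.

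Among the *fip* and *fipr* genes, whose peptides are also small and secreted, *fip-6* had the largest decrease of all members. It read -2.50, -2.77 and -2.80 in the controls and -3.23, -3.56 and -3.74 with pRJ-Fr.5. The groups lay well apart, with a decrease of 0.82 ± 0.15 or 1.77-fold (adjusted p = 0.00728), and it was of like size on slide 1 (-0.76) and slide 2 (-0.94). The other 7 called *fipr* genes moved by less, from 1.20-fold to 1.28-fold, but with little spread. *fipr-3* read -0.79, -0.79 and -0.87 in the controls and -1.17, -1.13 and -1.23 with pRJ-Fr.5. Its replicates lay so close together that the decrease of 0.36 ± 0.06 had the lowest adjusted p of all members (0.00536). *fipr-10* read 0.21, 0.23 and 0.29 against -0.02, -0.06 and -0.03, and it fell by 0.28 ± 0.05 (adjusted p = 0.0104). *fipr-11* read -0.14, -0.28 and -0.08 against -0.44, -0.53 and -0.40, and it fell by 0.29 ± 0.07 (adjusted p = 0.0292). Neither gene had a pRJ-Fr.5 array as high as its lowest control.

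*fipr-6* and *fipr-7*, which are neighbours on chromosome V, and *fipr-4* and *fipr-5* on the same chromosome were all lower. *fipr-6* read -0.47, -0.59 and -0.55 in the controls and -0.92, -0.87 and -0.84 with pRJ-Fr.5, a decrease of 0.34 ± 0.06 (adjusted p = 0.00772). *fipr-7* read 2.30, 2.20 and 2.25 against 2.02, 1.96 and 1.88, a decrease of 0.29 ± 0.06 (adjusted p = 0.017). For both, the gap between the groups was wider than the spread within either. *fipr-5* read 2.08, 2.04 and 1.98 against 1.77, 1.75 and 1.69, a decrease of 0.30 ± 0.06 (adjusted p = 0.0121). *fipr-4*, the mean of 3 probes, read 0.34, 0.15 and 0.19 against -0.03, -0.09 and 0.03, a decrease of 0.26 ± 0.07 (adjusted p = 0.0407). The groups of these genes did not overlap either, though the highest pRJ-Fr.5 array of *fipr-4* came near the lowest control. Probe sequences were not used here, and whether probes of such related genes bind one another's RNA was not tested.

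The calls of *fip-6*, *fipr-3* and *fipr-6* held with any array left out, as did that of *nlp-30*. *fipr-5* was not called without control replicate 2 (adjusted p = 0.0535) and *fipr-10* not without pRJ-Fr.5 replicate 2 (adjusted p = 0.0568). *fipr-7* and *fipr-11* each lost the call without control replicate 1, control replicate 3 or pRJ-Fr.5 replicate 2, with adjusted p up to 0.067 and 0.114, and *fipr-4* lost it without any of the 6 arrays in turn (adjusted p 0.0508 to 0.145). None of these genes changed sign, which genes whose groups do not overlap cannot do when 1 array is left out. *fipr-21*, the member of this family with the highest signal, read 5.07, 5.16 and 5.30 against 5.02, 4.96 and 4.94. Its groups did not overlap, but the difference of -0.21 ± 0.08 was not called (adjusted p = 0.0821). *fip-5* (-0.32, adjusted p = 0.0571), its neighbour on chromosome X, was not called either.

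**Figure D4:**
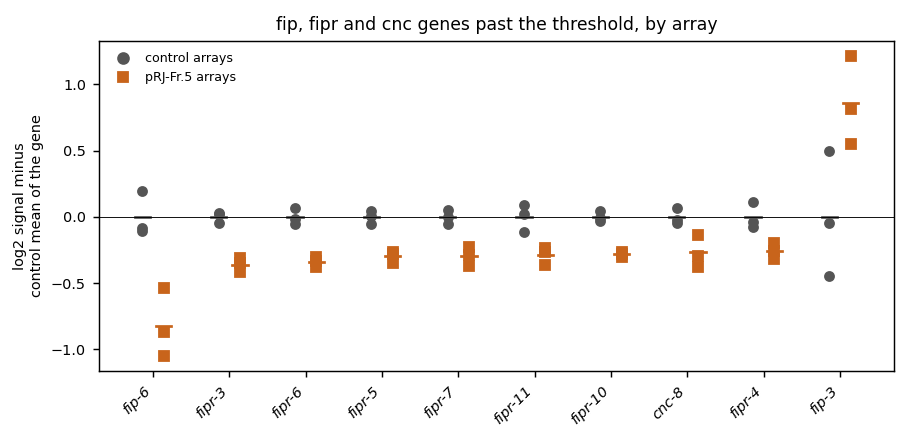
Log2 signal of each array minus the control mean of the gene for the *fip*, *fipr* and *cnc* genes that passed the threshold, with control arrays as circles, pRJ-Fr.5 arrays as squares and group means as bars. In 9 genes all squares lie below all circles, by 0.26 to 0.82 on average, and in *fip-3* they lie above, by 0.86, with a wide spread in both groups.

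*fip-3* was the called gene of the family that rose. It read -5.63, -5.23 and -4.69 in the controls and -3.97, -4.63 and -4.37 with pRJ-Fr.5. The highest control array and the lowest pRJ-Fr.5 array nearly touched, and the increase was 0.86 ± 0.26, or 1.82-fold (adjusted p = 0.0494). It was 1.13 on slide 1 and 0.32 on slide 2. Its call was lost when control replicate 1, control replicate 2 or any pRJ-Fr.5 array was left out, with increases of 0.64 to 1.02 and adjusted p of 0.0637 to 0.128. Normexp gave 0.49 (adjusted p = 0.0415). Of the 18 alternatives, those with 1 array left out included, 13 lost the call. In the fit by probe, the 1 probe of *fip-3* was not called (limma, adjusted p = 0.0512). *fipr-16*, its neighbour on chromosome III, read -4.85, -4.40 and -3.97 in the controls and -3.43, -4.38 and -3.68 with pRJ-Fr.5. In both genes replicate 3 was the highest control and replicate 2 the lowest pRJ-Fr.5 array, and in *fipr-16* the groups overlapped (0.58 ± 0.30, adjusted p = 0.182). The 12 members of the family that were neither called nor among *fipr-22*, *fipr-23* and *fipr-24* had fold changes of -0.45 to 0.58.

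In the *cnc* family only *cnc-8*, also the *cnc* gene with the highest signal, passed the threshold. It read 1.36, 1.33 and 1.44 in the controls and 1.24, 1.09 and 1.00 with pRJ-Fr.5. All pRJ-Fr.5 arrays were lower, by 0.27 ± 0.08 on average (adjusted p = 0.0459), and its 5 probes went down by 0.25 to 0.31. The call was lost without any 1 array but pRJ-Fr.5 replicate 1 (adjusted p 0.0977 to 0.144, decreases of 0.21 to 0.29). *cnc-3* also had groups that did not overlap, with controls of -0.31, -0.33 and -0.28 against -0.52, -0.61 and -1.08. Its difference of -0.43 ± 0.14 was not called (adjusted p = 0.0626), and pRJ-Fr.5 replicate 3 was far below the other 2. *cnc-3* was called lower with the slide as a block and without pRJ-Fr.5 replicate 1 or 3. *cnc-4* and *cnc-10* had overlapping groups and differences of 0.10 and 0.04.

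The remaining *cnc* genes shared a pattern with 3 *fipr* genes that turned on a single array. In *cnc-2*, *cnc-6*, *cnc-7*, *cnc-11*, *fipr-22*, *fipr-23* and *fipr-24*, control replicate 1 was at least 1.8-fold above both other control arrays. That was so for 7 of 42 members and for 34 of all 16049 genes, or 0.212%. No member was that far above or below the other controls on control replicate 2 or 3. In all 7 genes the 3 pRJ-Fr.5 arrays were above control replicates 2 and 3, and the same held in 20 of the 27 other such genes. The 7 genes were listed after their values were seen, and control replicate 1 shared its slide with 3 other arrays. Its median signal was 204.9 scanner units, against 158.6 to 171.3 on the other arrays, and the part of this in the pattern was not tested. Among the pRJ-Fr.5 arrays, replicate 1 was that far below both others for *cnc-6* and *fipr-24*, and replicate 3 that far above them for *cnc-6*.

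*cnc-6*, the *cnc* gene with the largest difference, read -2.99, -5.04 and -5.09 in the controls and -4.02, -3.15 and -2.01 with pRJ-Fr.5. Control replicate 1 lay above 2 of the 3 pRJ-Fr.5 arrays, and the fold change of 1.31 ± 0.70 was not called (adjusted p = 0.192). *cnc-11* read -2.33, -4.03 and -4.22 against -2.92, -2.32 and -2.31. *cnc-2*, at the other end of a run of 6 *cnc* genes on chromosome V, read -1.53, -2.74 and -3.02 against -2.08, -1.81 and -1.84. In both, control replicate 1 was in or above the range of the pRJ-Fr.5 arrays, and the differences were 1.01 ± 0.49 (adjusted p = 0.161) and 0.52 ± 0.36 (adjusted p = 0.299). *cnc-3* and *cnc-4*, which lie between them in that run, were not that far above the other controls on replicate 1. *cnc-7*, outside the run, read -3.96, -5.01 and -5.24 against -4.05, -3.68 and -3.80, with a difference of 0.89 ± 0.32 (adjusted p = 0.0785).

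*fipr-24*, the *fipr* gene with the largest difference, read -3.16, -4.15 and -4.47 in the controls and -3.35, -2.37 and -2.15 with pRJ-Fr.5. Control replicate 1 was above pRJ-Fr.5 replicate 1 and below the other 2, and the fold change was 1.30 ± 0.42 (adjusted p = 0.0582). Another *fipr-24* probe was not used, since it was detected on only 2 control arrays. The array missing was control replicate 3, which had the fewest probes well above background. The probe read -5.09, -6.03 and -5.82 in the controls and -4.08, -4.42 and -4.05 with pRJ-Fr.5, with no overlap of the groups. *fipr-22* read -0.66, -1.67 and -1.93 against -0.74, -0.36 and -0.54, with a difference of 0.88 ± 0.32 (adjusted p = 0.0776). *fipr-23* read -1.36, -2.38 and -2.58 against -1.55, -1.05 and -1.26, with a difference of 0.82 ± 0.32 (adjusted p = 0.0934). In both, control replicate 1 was again between pRJ-Fr.5 replicate 1 and the other pRJ-Fr.5 arrays. *fipr-22* and *fipr-24* are neighbours on chromosome I. The calls of 3 of the 7 genes also turned on the scaling: *cnc-7*, *fipr-22* and *fipr-24* were called higher after a shift to the median and after normexp. With all arrays, *fipr-24* was also called higher with detection in 1 group, and *fipr-22* by its probe with the highest signal.

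**Figure D5:**
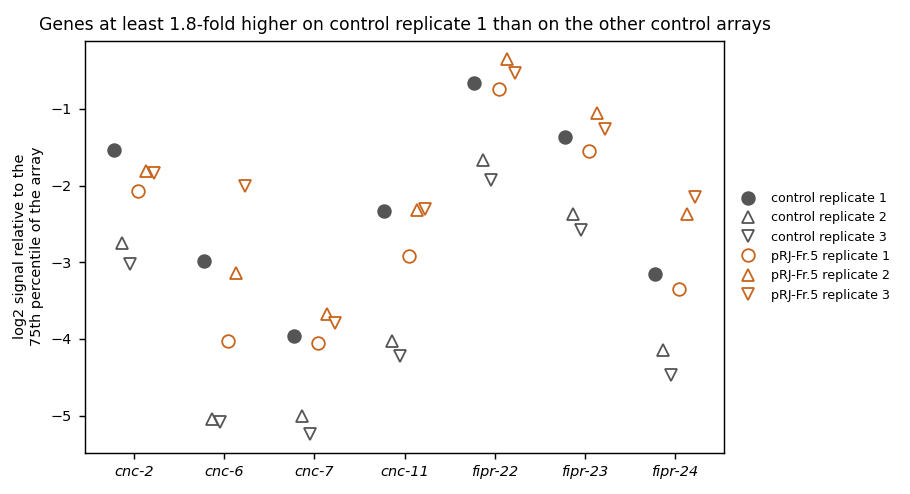
Log2 signal relative to the 75th percentile of the array for the 7 genes that were high on control replicate 1 (filled circle), with control replicates 2 and 3 in grey and the 3 pRJ-Fr.5 arrays in orange. In each gene the filled circle sits among or next to the orange points, and both other control arrays lie below all of them.

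With all arrays and the settings of the report, limma called 0 of the 7 genes, and 4 passed at an unadjusted p under 0.05. Without control replicate 1, 6 of the 7 were called higher with pRJ-Fr.5. The increases were then 0.97 ± 0.13 for *cnc-2*, 1.28 ± 0.14 for *cnc-7*, 1.61 ± 0.21 for *cnc-11*, 1.26 ± 0.14 for *fipr-22* and 1.19 ± 0.16 for *fipr-23* (adjusted p = 0.0131 for each), and 1.69 ± 0.37 for *fipr-24* (adjusted p = 0.0323). In fold these were 1.97 to 3.22. *cnc-6* had a difference of 2.00 ± 0.56 and was not called (adjusted p = 0.0626). Together with *nlp-28* (0.93, adjusted p = 0.0232), 7 members were then higher and 6 lower, where 4.77% of all genes were called higher and 14.5% lower. The genes were chosen by that array, so these values describe the other 5 arrays and are no independent test of the increase.

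A total of 11 genes were not measured on all 6 arrays. *cnc-1*, *fipr-14* and *fipr-25* were not well above background on any array, *fip-4* was so on 1 pRJ-Fr.5 array, *fipr-15* on 1 array of each group, and *cnc-9* on 2 control arrays and 1 pRJ-Fr.5 array. *fip-1* was above background on 2 arrays of each group, and *cnc-5* and *nlp-32* on 1 control array and 2 pRJ-Fr.5 arrays. The nearest to full detection were *fipr-26* and *fipr-28*, seen on 2 control arrays and all 3 pRJ-Fr.5 arrays, with differences of 0.65 (adjusted p = 0.279) and 0.37 (adjusted p = 0.281) when detection in 1 group was enough. On control replicate 3 they read -5.55 and -5.48, where the lowest value well above background was -5.60. On the other arrays that lowest value was -8.12 to -7.54, so detection was not equal between arrays. None of the 11 was above background on all arrays of 1 group and on none of the other, so no lower bound of a fold change was given. A further 5 of the 58 genes that RefSeq lists (*fip-7*, *fipr-8*, *fipr-9*, *fipr-19* and *fipr-20*) had no probe matched by name and were not analysed here.

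The genes of the epidermal p38 cascade, from the receptor gene *dcar-1* through *tir-1*, *nsy-1*, *sek-1* and *pmk-1* to the transporter-like *snf-12*, were measured in 14 of 15 cases. Of these, 0 were called by limma in either direction and 0 passed at an unadjusted p under 0.05, with a median of 0.03, while *sta-2* was not matched to a probe. *pmk-1* itself differed by 0.16 (adjusted p = 0.128). Of the 10 measured genes in a list of negative regulators of these peptides and osmotic stress genes, 2 were higher and 5 lower. The negative regulator gene *dapk-1*, also listed, was not measured on all arrays. For scale beside the counts of these lists, 29.8% of all genes were called, 10.7% higher and 19.1% lower. *wdr-23* and *wnk-1* rose by 0.23 and 0.25. *osm-7* and *osm-8*, whose loss is known to raise *nlp-29*, fell by 0.69 and 0.74 (adjusted p = 0.00203 and 0.0275), and *ptr-23* fell by 0.32. *osr-1* fell by 0.60 and *gpdh-1*, a glycerol-synthesis gene known to rise in high salt, by 0.99 or 1.99-fold (adjusted p = 0.00571). Of 9 genes of the DBL-1 pathway 3 were higher and 0 lower: the type II receptor gene *daf-4* and *sma-9* by 0.25 each and *sma-10* by 0.34. The ligand gene *dbl-1* differed by -0.16 (adjusted p = 0.0604).

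All 8 epidermal markers looked for were measured, among them the transcription factor genes *lin-26*, *elt-1* and *elt-3*, which were not called. The log2 of the summed signal of the 8 was 4.73 to 4.79 in the controls and 4.39 to 4.48 with pRJ-Fr.5. The brightest of them, *col-19* and *rol-6* (control means of 3.51 and 3.32), weigh most in this sum. It does not show a fall of all 8 genes, whose median log2 fold change was -0.05. *lin-26*, *elt-3* and *dpy-10* had values of 0.19, 0.09 and 0.07, while *elt-1*, *dpy-7* and *col-10* had values of -0.05, -0.42 and -0.98. Only *rol-6*, a cuticle collagen gene, was called among them, from a mean of 3.32 to 2.13 (-1.20, adjusted p = 0.00314), while the adult collagen gene *col-19* differed by -0.06. Of 4 sperm markers 2 were measured and both were lower (*msp-3* by 0.49 and *spe-11* by 0.67), with summed levels of 4.13 to 4.18 in the controls and 3.54 to 3.79 with pRJ-Fr.5. The intestinal (1 higher of 6), body wall muscle (0 called of 4), neuronal (0 of 4) and germline markers (0 of 4) had summed levels that overlapped between the groups, and 1, 2 and 1 genes of the last 3 lists passed limma's test before adjustment. The part of these shifts in the peptide genes' values was not tested. In RNA of whole worms, fewer cells of a type and less RNA in each cell cannot be told apart.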

How the data were processed

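The authors hybridized Cy3-labeled RNA of 3 control and 3 pRJ-Fr.5 samples to Agilent *C. elegans* arrays, and deposited the spot intensity from Agilent Feature Extraction 10.7.1.1 (background subtracted, not normalized between arrays). Their series table, deposited beside it, holds a linear ratio: when checked over the 21678 to 22028 probes compared on an array, 99.1% to 100% of values lay within 0.1 log2 of the signal over the array's 75th percentile (column medians 0.098 to 0.106). The grid's build differs from that of RefSeq WBcel235, which named 80.0% of the probes, so no coordinates are given.

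Replicate spots were averaged, and each array's 75th percentile was subtracted on the log2 scale. Probes positive and well above background on all 6 arrays were kept (27518 of 43603), and a gene was the mean of its kept probes. No spot was saturated, and outlier-flagged spots were left out. Groups were compared with limma 3.58.1 (R 4.3.3, lmFit and eBayes, no block). The number of arrays limits the precision. No 2 arrays of a group were copies (closest pair, median absolute log2 difference 0.0860).

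The members and gene lists were chosen with earlier results of these data known. Named genes were members past the threshold, the member of each family with the highest signal and the one with the largest difference, members not measured on all arrays, and list genes past the threshold. *nlp-29*, *nlp-31*, *nlp-34*, *cnc-3*, *fip-5*, *fipr-16* and the genes high on control replicate 1 were named after their values were seen. Alternatives were the methods' t-test, normexp (offset 50, on the median signal), quantile normalization, other shifts and filters, the series table, replicate or slide as a block, the brightest probe, and each array left out.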

Additional observations from a re-analysis of the deposited data

How the results depend on the processing

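The 16 called genes kept their direction under all 18 alternatives (288 values), and 188 of these values also kept the call. As their groups did not overlap, the direction could not turn with another test, a block or 1 array left out of the same probes. *fip-6*, *fipr-3*, *fipr-6* and *nlp-30* were called under all 18. For the count of 16 member genes (2 higher, 14 lower), the methods' t-test after adjustment called 7 (0 higher, 7 lower; 16.7% of members, 21.9% of all genes). The shift to the median called 10 (5 and 5; 23.8% and 27.6%), detection in 1 group 10 (2 and 8; 22.7% and 23.2%) and no filter on dim probes 6 (0 and 6; 11.3% and 10.9%). The members' share of calls, 38.1% against 29.8% in the report, was thus close to or below that of all genes under these settings. It stayed above that of all genes with normexp (40.5% against 27.8%) and the brightest probe (40.5% against 28.7%). The same held with the 75th percentile of kept probes (38.1% against 29.5%) and quantile normalization (35.7% against 29.2%). The higher count was 5 with normexp and 1 with quantile normalization, the 75th percentile taken over kept probes only, the series table and the slide as a block, and 1 gene was left at 1.8-fold. Leaving out 1 array gave 5 to 16 genes, 0 to 7 higher and 5 to 14 lower, with 13 without control replicate 1 (31%, against 19.3% of all genes) and 5 without pRJ-Fr.5 replicate 2 (11.9%, against 17.1%). The median over the probes of a gene, added after the data were seen, gave 13.

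Of the member probes (28 called), the methods' t-test called 9 (10.2%, against 16.3% of all probes) and no filter 11 (10%, against 8.27%), and leaving out 1 array gave 13 to 36. The median log2 fold change of all members moved from -0.048 to 0.0084 with normexp and -0.0042 with detection in 1 group, that of *fip* and *fipr* from -0.13 to -0.015, -0.058 and -0.064 with normexp, detection in 1 group and no filter, and that of *nlp* from -0.18 to -0.045 with no filter. With 1 array left out these medians ranged from -0.088 to -0.020, from -0.19 to -0.044 and from -0.25 to -0.14, and that of *cnc* (0.31) from 0.15 to 0.60. The sign of *nlp-34* turned without control replicate 2 (-0.16), control replicate 3 (-0.007) or pRJ-Fr.5 replicate 3 (-0.063), within a range of -0.16 to 0.35 over the arrays left out. The cause of these shifts was not tested, apart from the fewer arrays or the larger number of genes tested that some settings bring.

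With the replicate number as a block 8 member genes (1 higher, 7 lower; 19%, against 19.9% of all genes) and 16 member probes (18.2%, against 17.0%) were called. Same-numbered arrays did not deviate together (correlations of -0.22, 0.06 and -0.01), so the numbers were not taken as pairs. Signal over background limits the 11 members that were not measured on all arrays.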
